A study of Mus musculus with 13 samples.

Results

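The mTORC1 regulators examined in mouse calf muscle comprised 10 genes: the sestrins Sesn1, Sesn2 and Sesn3, the REDD proteins Ddit4 and Ddit4l, the translation repressors Eif4ebp1 and Eif4ebp2, the Rag GTPases Rraga and Rragd, and Mtor itself. They were chosen by name, as every non-control probe of the array that carried 1 of these gene names, which gave 11 of 55681 probes and 10 of 34797 gene names. Mtor had 2 probes and the other genes 1 each. All 11 probes passed the filter on dim probes, which kept 17257 gene names. Gastrocnemius RNA was compared between 7 UCP1 transgenic mice and 6 wild-type littermates, all male, all on the C57BL/6J background and all kept for 12 weeks on a purified diet low in fat; the labels give an age of 12 weeks. UCP1, the uncoupling protein of brown fat mitochondria, was overexpressed in skeletal muscle per the title of the series, and the sources used here do not give the transgene's promoter or line. Each mouse had 1 array, with its own RNA in the Cy5 channel and a reference pool of the samples in the Cy3 channel. The stated interest of the study was amino acid shortage in this muscle and signalling by the hormone FGF21.

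mTORC1 is the protein kinase complex through which amino acids, insulin and energy supply set the rate of protein synthesis, and in muscle it is a main regulator of fibre growth. Amino acids act through the Rag GTPases, which work as a dimer of RagA or RagB with RagC or RagD and bring mTORC1 to the lysosome, while sestrins restrain them through the GATOR complexes and Sestrin2 binds leucine. REDD1, the product of Ddit4, and its relative REDD2, the product of Ddit4l, restrain the complex through TSC, the inhibitor of the activating GTPase Rheb. The 4E-BPs, encoded by Eif4ebp1 and Eif4ebp2, hold the cap-binding factor eIF4E until mTORC1 phosphorylates them, so that they are both targets and brakes.

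Several of these genes are themselves under stress control. Sesn2, Ddit4 and Eif4ebp1 are known targets of ATF4, the transcription factor of amino acid shortage, Ddit4 is also induced by glucocorticoids and by low oxygen, Sesn1 and Sesn3 are known targets of p53 and FoxO factors, and Rragd is a known target of TFEB and MITF. The promoters of the members that passed the test below are shown for this reason, as the 250 bases before the gene start in RefSeq on GRCm38.p6, 5′ to 3′ on the gene's strand. RefSeq's table held 9 of the 10 genes, and Eif4ebp1 is named only. Capitals mark the single motif match found in them. The regions are chr4:132510457-132510706 on the minus strand for Sesn2, chr10:59951771-59952020 on the minus strand for Ddit4, chr3:137623422-137623671 on the plus strand for Ddit4l and chr4:32982748-32982997 on the plus strand for Rragd.
Sesn2: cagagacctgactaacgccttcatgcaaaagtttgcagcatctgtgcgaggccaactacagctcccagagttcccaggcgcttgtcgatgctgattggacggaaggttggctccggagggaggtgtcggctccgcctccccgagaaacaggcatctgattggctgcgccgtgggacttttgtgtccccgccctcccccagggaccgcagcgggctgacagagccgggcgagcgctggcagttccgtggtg
Ddit4: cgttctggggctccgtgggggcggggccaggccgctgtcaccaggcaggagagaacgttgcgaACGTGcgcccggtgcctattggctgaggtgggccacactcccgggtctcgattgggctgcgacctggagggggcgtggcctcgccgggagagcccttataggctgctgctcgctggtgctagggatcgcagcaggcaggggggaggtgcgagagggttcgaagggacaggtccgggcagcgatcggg
Ddit4l: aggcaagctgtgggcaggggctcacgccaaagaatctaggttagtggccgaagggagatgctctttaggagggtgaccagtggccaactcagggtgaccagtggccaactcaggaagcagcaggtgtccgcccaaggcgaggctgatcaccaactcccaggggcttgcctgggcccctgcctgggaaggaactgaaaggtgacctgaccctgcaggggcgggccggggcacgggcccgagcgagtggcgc
Rragd: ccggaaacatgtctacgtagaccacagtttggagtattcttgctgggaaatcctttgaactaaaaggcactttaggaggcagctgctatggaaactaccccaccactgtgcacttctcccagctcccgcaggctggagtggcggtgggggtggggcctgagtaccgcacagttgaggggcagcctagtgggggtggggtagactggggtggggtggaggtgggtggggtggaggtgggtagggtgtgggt

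Both strands of these windows and of 32851 RefSeq promoter windows of the same length were searched for 5 motifs. The C/EBP-ATF response element TGATGNAA was in 3.45% of all windows, the hypoxia response core ACGTG in 16.6%, the palindromic glucocorticoid response element in 0.387%, the FoxO site GTAAACA in 3.17% and the CLEAR element of TFEB and MITF, which contains the hypoxia core, in 0.24%. Among the 9 genes, Ddit4 held the hypoxia core 187 to 183 bases before its start, and Eif4ebp2 held it on the opposite strand 182 to 178 bases before its start. The other motifs had no match in the windows of these 9 genes, which says only that these letters were not there.

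Between 37.1% and 43.2% of the probes were well above background on each array, and no spot was saturated. Before background was subtracted, the median Cy5 signal was 40.4 to 50.8 units, and the median local background was 29 to 33 units. Values are log2 ratios of the mouse over the reference pool after background correction and loess normalization. Differences are UCP1 transgenic minus wild type, so a positive one is higher in transgenic muscle. Their p-values come from limma with Benjamini-Hochberg adjustment over 17257 genes, and the test was passed at an adjusted p under 0.05. Ucp1, the check of the labels, ranged from -0.20 to 0.85 in the 7 transgenic mice and from -4.23 to -2.82 in 5 of the wild-type mice, but was 0.45 on the array labelled wild type 4. That array went against its label for Ucp1, so the difference of each of the 10 genes is also given without it. The arrays lay on 4 slides, each with mice of both groups. Wild type 1, transgenic 3 and the array labelled wild type 4 were each the only array of their group on their slide. The lowest and highest of the differences within slides are given for each gene.

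Markers of several cell types moved with the groups. The mean log2 ratio of 9 adipocyte markers was -0.27 to 0.23 in transgenic mice, against -0.50 to -0.41 in wild-type mice other than the array labelled wild type 4, which had 0.07. Of these 9, 6 were higher in transgenic mice and 1 (Car3, which muscle fibres also express) was lower; Lep did not pass the filter. The mean of 10 muscle fibre markers was -0.28 to 0.02 in transgenic and 0.15 to 0.45 in wild-type mice. Of these 10, 1 was higher (Myh1, 0.62) and 6 were lower, led by Acta1 (-0.93), Pvalb (-0.91), Myh4 (-0.74) and Actn3 (-0.70). Ckm (-0.03), Des (0.09) and Myh2 (-0.01) did not pass, so this list did not move as a whole. Of 4 erythrocyte markers 3 were higher (means -0.32 to 0.62 in transgenic and -0.66 to -0.04 in wild-type mice), as were 3 of 6 Schwann cell markers (-0.04 to 0.26 and -0.39 to 0.06). With the arrays centred on their medians without loess, called median centring below, 4 of the adipocyte, 1 of the muscle fibre, 1 of the erythrocyte and none of the Schwann cell markers were higher, and none in these 4 lists was lower. With loess, 77.8% of adipocyte, 70% of muscle fibre, 75% of erythrocyte and 50% of Schwann cell markers passed, against 33% of all genes. Of 6 satellite cell and regenerating fibre markers, 50% also passed, 1 higher (Myog, 1.39) and 2 lower. In whole muscle, fewer cells of a type and less RNA per cell cannot be told apart. Each member was also fitted with the adipocyte marker mean as a covariate, with values given where this changed a call or moved a called value by over 1.5 times. The part of the other cell types in the results was not tested.

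Of the 10 genes, Sesn2 and Eif4ebp1 were higher in transgenic muscle, Ddit4, Ddit4l and Rragd were lower, and Sesn1, Sesn3, Eif4ebp2, Rraga and Mtor did not pass the test. Across all 17257 genes, 33% passed the test, 16.8% higher and 16.1% lower, so 5 of 10 is to be read against a share of 1 in 3. At a log2 difference of at least 1 in size, 2 of the 10 passed (Eif4ebp1 and Ddit4), against 1.65% of all genes. The values of the groups did not overlap in 4 of the 10 genes (Sesn2, Ddit4l, Eif4ebp1 and Rragd), against 14.8% of all genes. Genes known to restrain growth signalling were thus on both sides, with Sesn2 and Eif4ebp1 higher and Ddit4 and Ddit4l lower, and the activator Rragd was lower.

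**Figure D1:**
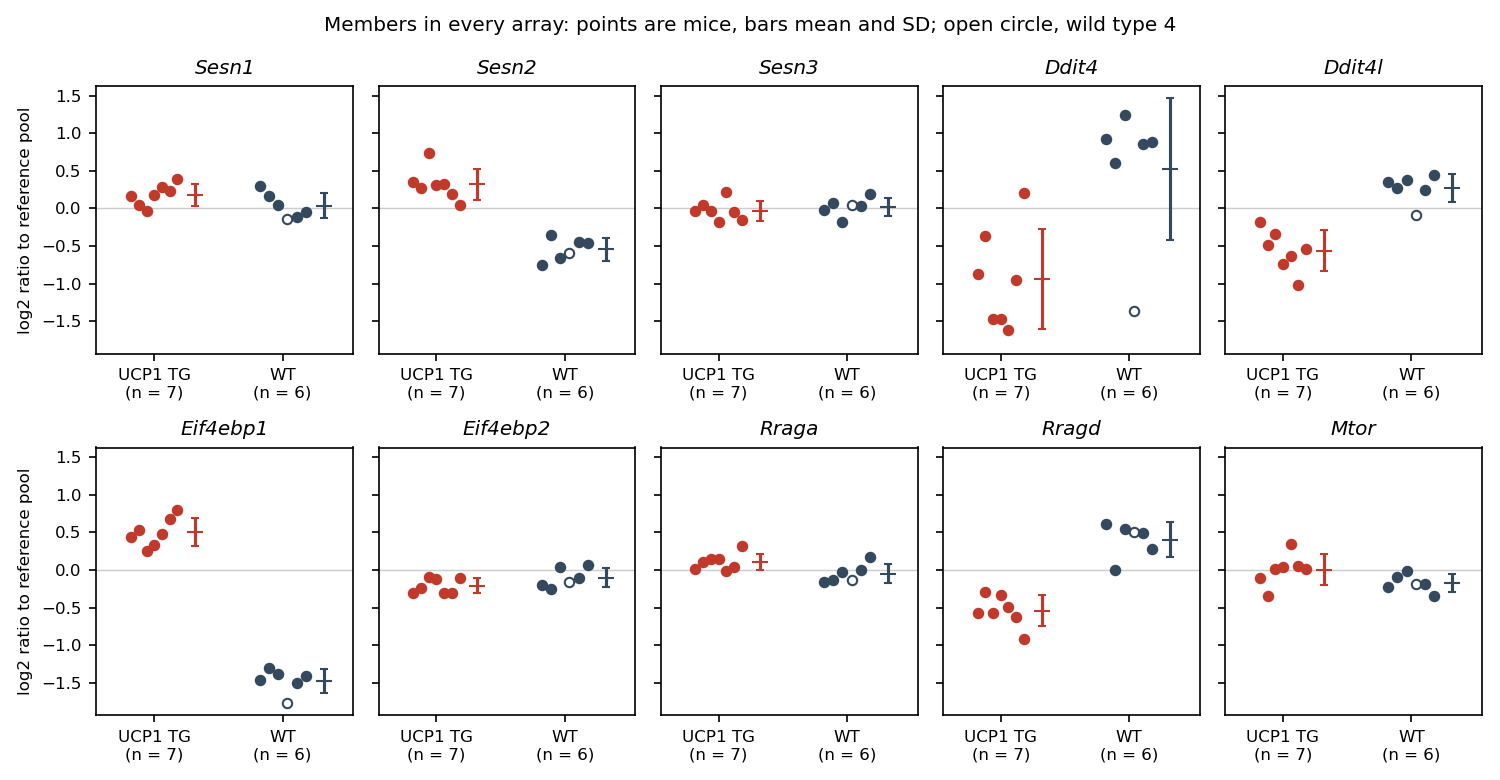
Log2 ratio of each mouse to the reference pool for the 10 genes, with UCP1 transgenic mice (red, n = 7) left of wild-type mice (dark blue, n = 6), bars for the mean and SD, and an open circle for the array labelled wild type 4. The groups are apart for Sesn2, Ddit4l, Eif4ebp1 and Rragd, while for Ddit4 the open circle at -1.36 lies among the transgenic values.

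Sesn2, which encodes a leucine-binding sestrin, was the sestrin that rose. It was measured by a probe at chr4:132048858-132048917 on the minus strand of mm9, the build of the file headers. Its lowest, median and highest log2 ratio were 0.05, 0.31 and 0.73 in transgenic mice, against -0.75, -0.53 and -0.35 in wild-type mice. Every transgenic value lay above every wild-type value. The means were 0.32 ± 0.21 in the 7 transgenic mice and -0.54 ± 0.15 in the 6 wild-type mice (both SD), a difference of 0.87 ± 0.09 (SE; 95% interval 0.67 to 1.06; 1.82-fold; limma adjusted p = 6.94e-07). The difference was 0.57 to 1.24 within the 4 slides and 0.86 without the array labelled wild type 4. With the adipocyte marker mean as a covariate it was 0.75 (limma adjusted p = 0.000795) on all arrays. On the 12 arrays without the one labelled wild type 4 it was 0.46 ± 0.20 (SE) and no longer passed (limma adjusted p = 0.182). The marker mean did not overlap between the groups on those arrays, so this fit can hardly tell the covariate and the genotype apart.

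Sesn1, the sestrin known mainly as a p53 and FoxO target, had log2 ratios of -0.04, 0.18 and 0.40 (lowest, median and highest) in transgenic mice and of -0.13, 0.00 and 0.29 in wild-type mice. Both groups covered much the same range. The difference was 0.15 ± 0.08 (SE; 95% interval -0.03 to 0.32; limma adjusted p = 0.193), within slides it lay between -0.19 and 0.39, and without the array labelled wild type 4 it was 0.11. With the log ratio of Agilent's software in place of the loess values it was 0.23 and passed (limma adjusted p = 0.0150). Sesn3, the FoxO-responsive sestrin, had log2 ratios of -0.19 to 0.22 in transgenic and of -0.18 to 0.19 in wild-type mice, with a difference of -0.05 ± 0.07 (SE; 95% interval -0.21 to 0.10; limma adjusted p = 0.636). It was -0.21 to 0.03 within slides and -0.05 without the array labelled wild type 4, and its sign turned to 0.02 with median centring. The Sesn3 spot was dim, with 37.8 to 101 units of Cy5 signal over background.

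Ddit4, the gene of REDD1, was the member that varied most between mice. Its probe lies at chr10:59412486-59412545 on the minus strand of mm9. The log2 ratios were -1.62, -0.96 and 0.21 (lowest, median and highest) in transgenic mice and -1.36, 0.87 and 1.24 in wild-type mice. In the wild-type group, 5 arrays lay between 0.61 and 1.24 and the array labelled wild type 4 lay at -1.36, below 4 of the 7 transgenic mice. The transgenic mice were also widely spread, and 3 of the 7 lay below every wild-type array. Its spread within groups, a residual SD of 0.806 against a median of 0.141 over all genes, ranked 24th of the 17257 genes.

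The means of Ddit4 were -0.94 ± 0.67 in the 7 transgenic mice and 0.52 ± 0.94 in the 6 wild-type mice (both SD), a difference of -1.46 ± 0.34 (SE; 95% interval -2.18 to -0.74; 2.75-fold lower; limma adjusted p = 0.00261). Without the array labelled wild type 4 the groups did not overlap, and the difference was -1.84 ± 0.24 (SE; limma adjusted p = 9.27e-06), with wild-type mice at 0.90 ± 0.23 (SD, n = 5). Within slides it was -1.54, -2.40, -0.19 and -1.24, the smallest on the slide that held that array. With the adipocyte marker mean as a covariate the difference was -0.30 ± 0.38 (SE; limma adjusted p = 0.659) on all arrays, a fit in which Ucp1 did not pass either. On the 12 arrays without the one labelled wild type 4 the difference of Ddit4 was -1.27 ± 0.51 (SE; limma adjusted p = 0.153). The fit on 12 arrays has the limit given for Sesn2. With median centring the difference of Ddit4 was -1.19 (limma adjusted p = 0.0574), or -1.33 relative to the median of all genes, which that centring moved to 0.14.

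Ddit4l encodes REDD2, the REDD protein best known from skeletal muscle, and it fell. It was measured at chr3:137290927-137290986 on the plus strand of mm9. Its log2 ratios were -1.02, -0.54 and -0.18 (lowest, median and highest) in transgenic mice and -0.08, 0.31 and 0.44 in wild-type mice. All transgenic values lay below all wild-type values, and the wild-type value nearest to them, -0.08, was that of the array labelled wild type 4. The means were -0.56 ± 0.27 in the 7 transgenic mice and 0.27 ± 0.19 in the 6 wild-type mice (both SD), a difference of -0.83 ± 0.11 (SE; 1.78-fold lower; limma adjusted p = 1.12e-05). Within slides it was -1.12 to -0.61, and without that array it was -0.90. With median centring it was -0.56 and did not pass (limma adjusted p = 0.0855), or -0.70 relative to all genes. With the adipocyte covariate it was -0.87 on all arrays and -1.50 on the 12 arrays without the one labelled wild type 4 (limma adjusted p = 4.39e-05). As for Sesn2, the fit on 12 arrays can hardly tell the covariate and the genotype apart, so the larger value adds no support.

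Eif4ebp1, the gene of 4E-BP1, which blocks cap-dependent translation when it is not phosphorylated, showed the largest difference of the 10 genes and ranked 31st from the highest of all 17257. Its probe lies at chr8:28385887-28385946 on the plus strand of mm9. The log2 ratios were 0.26, 0.48 and 0.80 (lowest, median and highest) in transgenic mice, against -1.77, -1.44 and -1.30 in wild-type mice. The gap between the groups was wider than the range within either group, and the array labelled wild type 4 had the lowest value of all. The means were 0.50 ± 0.19 in the 7 transgenic mice and -1.48 ± 0.16 in the 6 wild-type mice (both SD), a difference of 1.98 ± 0.09 (SE; 3.94-fold; limma adjusted p = 2.78e-12). Within slides it was 1.60 to 2.21, and without the array labelled wild type 4 it was 1.92. With the adipocyte covariate it was 2.27 on all arrays and 2.32 on the 12 others, a fit with the limit given for Sesn2.

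Eif4ebp2, the gene of the related repressor 4E-BP2, had log2 ratios of -0.31, -0.24 and -0.09 (lowest, median and highest) in transgenic mice and of -0.25, -0.14 and 0.07 in wild-type mice. The groups overlapped, and the difference was -0.11 ± 0.07 (SE; 95% interval -0.26 to 0.04; limma adjusted p = 0.259). It was -0.19 to 0.02 within slides and -0.12 without the array labelled wild type 4. With median centring its sign turned to 0.17, or 0.03 relative to all genes.

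Rragd, the gene of RagD, fell. It was measured by a dim probe at chr4:33106184-33106243 on the plus strand of mm9, with 46.3 to 216 units of Cy5 signal over background on the 13 arrays. Its log2 ratios were -0.92, -0.57 and -0.30 (lowest, median and highest) in transgenic mice, against 0.00, 0.50 and 0.61 in wild-type mice. The groups did not overlap, and the array labelled wild type 4, at 0.51, lay among the other wild-type arrays. The means were -0.54 ± 0.21 in the 7 transgenic mice and 0.41 ± 0.23 in the 6 wild-type mice (both SD), a difference of -0.95 ± 0.10 (SE; 1.93-fold lower; limma adjusted p = 8.98e-07), with -1.16 to -0.84 within slides and -0.93 without the array labelled wild type 4. The offset of 50 units shrinks ratios of dim spots: without it the difference was -1.34, and -1.59 with the log ratio that Agilent's software wrote.

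Rraga, the gene of RagA, the partner of RagC and RagD in the dimer, had log2 ratios of -0.01, 0.11 and 0.32 (lowest, median and highest) in transgenic mice and of -0.16, -0.08 and 0.17 in wild-type mice. The difference was 0.16 ± 0.07 (SE; 95% interval 0.01 to 0.30; limma adjusted p = 0.102), with 0.10 to 0.23 within slides and 0.14 without the array labelled wild type 4. Without wild type 6, the highest wild-type array for this gene, it was 0.20 and passed (limma adjusted p = 0.0326).

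Mtor, the gene of the kinase itself, had log2 ratios of -0.34, 0.02 and 0.34 (lowest, median and highest) in transgenic mice and of -0.34, -0.19 and -0.01 in wild-type mice by its brighter probe, at chr4:147931250-147931309 on the plus strand of mm9. The difference was 0.18 ± 0.09 (SE; 95% interval -0.01 to 0.36; limma adjusted p = 0.135), with 0.01 to 0.38 within slides and 0.17 without the array labelled wild type 4. Without transgenic 2, the lowest transgenic array, it was 0.23 and passed (limma adjusted p = 0.0280). The other probe, at chr4:147829016-147829075, was well above background on 5 transgenic and 2 wild-type arrays, and its difference was 0.09 (limma adjusted p = 0.294 over the kept probes, of which 31.8% passed).

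**Figure D2:**
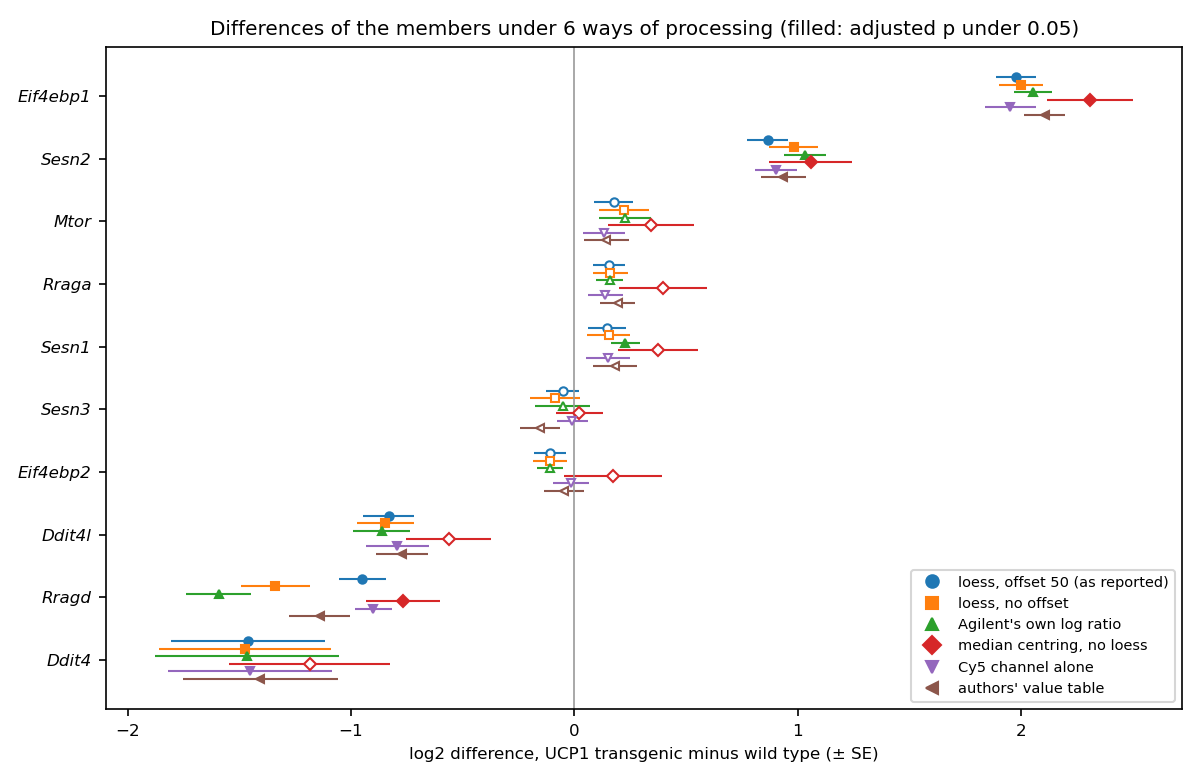
Log2 difference, UCP1 transgenic minus wild type, with its SE for the 10 genes under 6 ways of processing, filled where the adjusted p was under 0.05. Eif4ebp1, Sesn2 and Rragd are filled under all 6, Ddit4 and Ddit4l under all but median centring, Sesn1 only with the log ratio of Agilent's software, and the sign of Sesn3 and Eif4ebp2 turns with median centring.

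Members of 1 family were set against each other within each array, so that anything that moved both genes of a pair by the same amount on an array cancelled. The 6 pairs were tested with an exact two-sided permutation test over the 1716 possible group assignments of 7 and 6 arrays, which cannot give a p below 0.00117, and adjusted over the 6 pairs. The log2 ratio of Sesn2 minus that of Sesn3 averaged 0.35 ± 0.22 in the 7 transgenic mice and -0.57 ± 0.12 in the 6 wild-type mice (both SD), a difference of 0.92 ± 0.10 (SE; exact permutation p = 0.00117, adjusted 0.00233). Sesn2 also moved by more than Sesn1, by 0.72 ± 0.17 (SE; exact permutation p = 0.00233, adjusted 0.0035), although these groups overlapped in 1 array. Sesn1 minus Sesn3 differed by 0.20 ± 0.12 (SE; exact permutation p = 0.127, adjusted 0.152).

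The other families split in the same manner, apart from the REDD pair. Eif4ebp1 minus Eif4ebp2 averaged 0.72 ± 0.23 in the 7 transgenic mice and -1.37 ± 0.19 in the 6 wild-type mice (both SD), a difference of 2.09 ± 0.12 (SE; exact permutation p = 0.00117, adjusted 0.00233). Rragd minus Rraga averaged -0.65 ± 0.28 in the 7 transgenic mice and 0.45 ± 0.27 in the 6 wild-type mice (both SD), a difference of -1.11 ± 0.15 (SE; exact permutation p = 0.00117, adjusted 0.00233). Ddit4 minus Ddit4l was -0.37 ± 0.69 in the 7 transgenic mice and 0.26 ± 0.77 in the 6 wild-type mice (both SD), a difference of -0.63 ± 0.41 (SE; exact permutation p = 0.152, adjusted 0.152). Without the array labelled wild type 4 that last difference was -0.93 and passed (exact permutation, adjusted p = 0.0212). The 60-base probes of a pair shared no run longer than 7 bases.

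**Figure D3:**
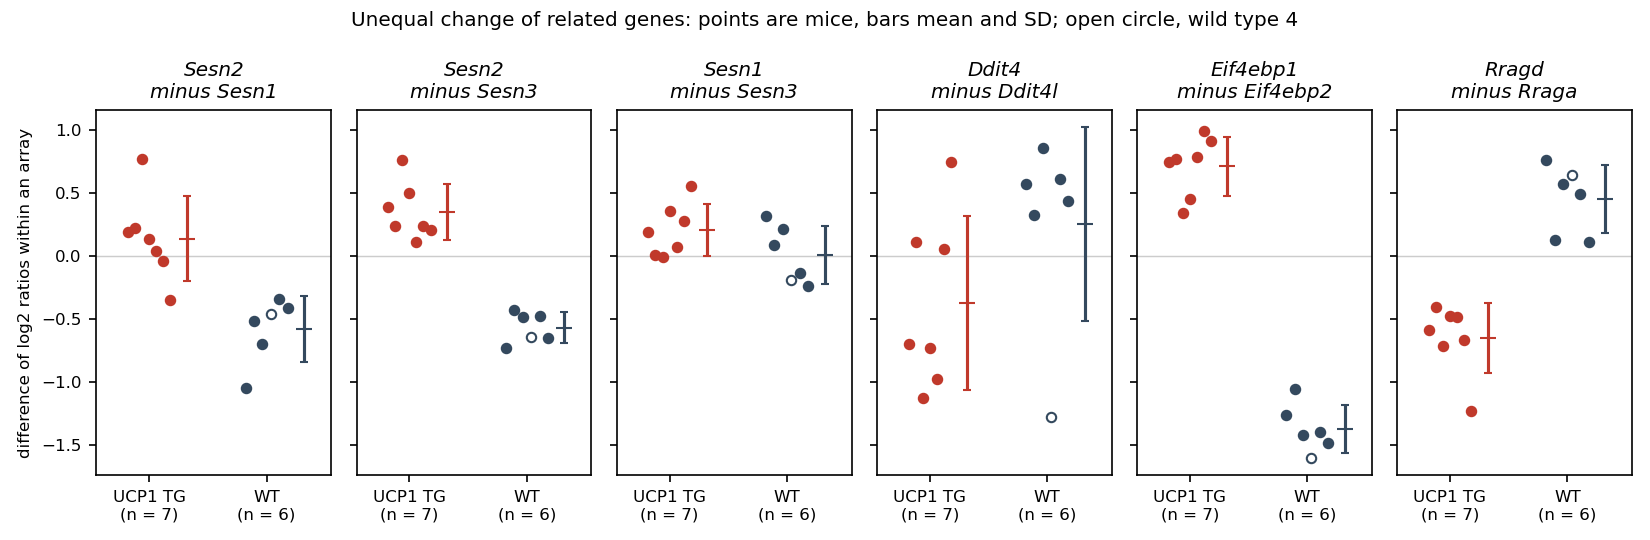
Difference of log2 ratios between 2 related genes within each array, with UCP1 transgenic mice (red, n = 7) left of wild-type mice (dark blue, n = 6), bars for the mean and SD, and an open circle for the array labelled wild type 4. The groups are apart for Sesn2 minus Sesn3, Eif4ebp1 minus Eif4ebp2 and Rragd minus Rraga, and the open circle is the lowest wild-type point of Ddit4 minus Ddit4l.

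The rest of the pathway was read from lists of 70 other genes, of which 66 passed the filter. In transgenic muscle 15 were higher, 16 were lower and 35 did not pass, so 47% passed, against 33% of all genes, with a median difference of 0.03 against 0.00 over all genes. With median centring 5 passed, all higher, and the share of 7.58% was that of all genes with this centring (7.57%). Without the array labelled wild type 4, 14 were higher and 16 lower. Of the 8 measured mTORC1 and mTORC2 subunits, 3 were higher: Mlst8, a subunit of both complexes (0.47), Akt1s1, the mTORC1 inhibitor PRAS40 (0.35), and Deptor, an inhibitor of both (0.28). Rictor, the defining subunit of mTORC2, was lower (-0.35). Rptor, which defines mTORC1, did not pass (0.09). Of 4 measured genes of the TSC complex and Rheb, Tbc1d7 (0.40) and Rhebl1 (0.22) were higher and Tsc1 (-0.34) was lower; Rhebl1 lost its call when any 1 of 9 arrays was left out (transgenic 1, 3, 4, 5, 6 or 7, wild type 4, 5 or 6). Rheb differed by -0.01 and did not pass.

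The amino acid branch around the Rag GTPases held 6 genes that passed of 24 measured, or 25%, against 33% of all genes. Of 10 measured genes of the other Rag GTPases, the Ragulator scaffold and folliculin, Lamtor3, a Ragulator subunit, was higher (0.22) and Flcn, the folliculin gene, was lower (-0.37). Rragc, the gene of RagC, differed by 0.06 and did not pass. Of 14 measured genes of the GATOR complexes, KICSTOR and amino acid sensors, BC048403 (0.37) and Seh1l of GATOR2 (0.34) were higher. Sar1b, a small GTPase also described as a leucine sensor (-0.77), and Castor2, a relative of the arginine sensor CASTOR1 that the files name Gatsl2 (-0.70), were lower.

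Among the effectors downstream of the complex 10 genes passed (62.5%), and among the kinases and insulin signalling genes upstream of it 8 (57.1%), against 33% of all genes. With median centring 1 gene of each list was higher and none was lower. Of 16 effectors, 4 were higher: Grb10, an adaptor that restrains insulin receptor signalling (0.73), Eif4b, an initiation factor (0.40), Rps6, the ribosomal protein S6 (0.33), and Atg13 of the autophagy-starting kinase complex (0.27). The lower effectors numbered 6, led by Lpin1, a phosphatidate phosphatase (-0.53), Tfeb (-0.50) and Mitf (-0.45), which drive lysosomal genes, and Rps6kb1, the S6 kinase (-0.36). Of 14 upstream kinases and insulin signalling genes, Igf1r (0.45), Akt1 (0.26) and Prkaa1, a catalytic subunit of AMPK (0.26), were higher. The 5 lower ones included Sgk1, a hormone-induced kinase (-1.08), Irs2, an insulin receptor substrate (-0.57), and Akt2, an insulin-activated kinase (-0.47). That count of 5 dropped to 3 without any 1 of transgenic 5, 6 or 7 or wild type 1, 2 or 3.

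Genes under the regulators known to act on the members were counted in the same way, from lists that leave the members out. The share that passed was 81.2% for ATF4, 40% for glucocorticoids, 50% for hypoxia and 54.5% for FoxO and p53, against 33% of all genes. Of 16 other ATF4 targets, Atf4 itself included, 12 were higher and 1 was lower, with a median of 1.29 against 0.00 over all genes. The pseudokinase gene Trib3 (4.58), the serine synthesis gene Psat1 (4.41), the asparagine synthetase gene Asns (4.15) and the factor gene Atf5 (2.61) led them, followed by Phgdh of serine synthesis (2.21), Nupr1 (2.19), the transporter subunit gene Slc3a2 (1.63), Ddit3 (1.52) and Cebpg (1.06). Vldlr, a lipoprotein receptor gene, was lower (-0.86). Sesn2 (0.87) and Eif4ebp1 (1.98) had the sign of the majority of this list, and Ddit4 (-1.46) the opposite sign. With median centring, 12 of the 16 were higher and none lower.

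Of 15 genes listed as other glucocorticoid-induced genes, the receptor gene Nr3c1 included, none was higher and 6 were lower. The median of the 15 was -0.29, with differences from -1.09 to 0.38. The lower ones were led by Tsc22d3, the gene of the GILZ protein (-1.09), Sgk1 (-1.08), the factor gene Cebpd (-0.82) and Fbxo32, the muscle ubiquitin ligase atrogin-1 (-0.78). Nr3c1, the gene of the receptor itself, was 1 of the 6 (-0.74). Fkbp5 and Pdk4, other common readouts of this hormone, did not pass (-0.10 and -0.01). Without wild type 1, 1 gene of the list was higher, and with median centring none of the 15 passed.

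Of 14 genes listed as other hypoxia-induced genes, Hif1a of the hypoxia factor itself included, 4 were higher. They were the oxygen sensor gene Egln3 (1.09), the glucose transporter gene Slc2a1 (0.61), Hif1a (0.30) and Pdk1 (0.18). The 3 lower ones were Pfkfb3 (-1.26) and Ldha (-0.73) of glycolysis and Ankrd37 (-0.27), and the median was -0.04. Of 11 measured FoxO and p53 regulators of sestrins and their other targets, 4 were higher: Gadd45a (2.65), the cell cycle inhibitor gene Cdkn1a (1.48), Gadd45b (0.69) and Bbc3 (0.53). Ccng1 (-0.43) and Mdm2 (-0.34), both p53 targets, were lower, and the median was 0.11. With median centring, 2 of the hypoxia genes and 4 of the FoxO and p53 genes were higher and none was lower in either list.

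**Figure D4:**
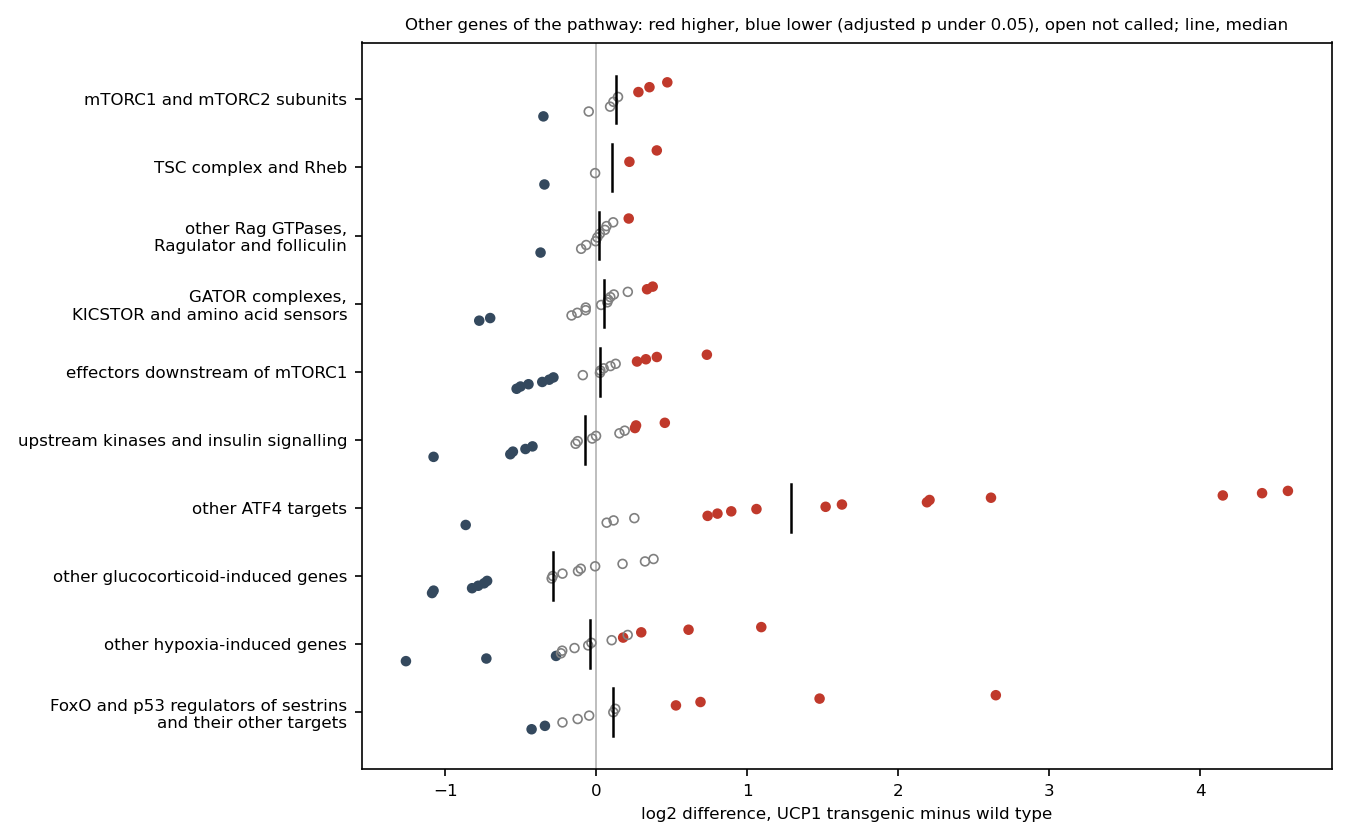
Log2 difference, UCP1 transgenic minus wild type, of each measured gene in the 6 pathway lists and 4 lists of regulated genes, with filled points for genes with an adjusted p under 0.05, open points for the others and a line at the list's median. The 6 pathway lists have medians between -0.07 and 0.13 and hold genes on both sides, and the ATF4 targets have a median of 1.29.

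The genes whose profiles over the 13 arrays were most like those of the 2 members with a difference of at least 1 in size were found by the root mean square difference of log2 ratios, each gene centred on its mean. For Eif4ebp1 they were Slc7a5, the transporter of large neutral amino acids (0.168), Arhgef2 (0.173), and Emb, a cell surface glycoprotein (0.197), against a median of 1.01 over all genes. They were higher in transgenic mice by 1.84, 1.81 and 1.83, and this measure favours genes with a difference near that of Eif4ebp1. For Ddit4 the nearest genes were further away: Gadd45g, a growth arrest gene (0.506), Cebpd (0.531) and NEAT2, a nuclear non-coding RNA (0.592), against a median of 1.05. Their differences were -2.19, -0.82 and -0.95. On the array labelled wild type 4, the centred values were -1.10 for Ddit4, -0.77 for Cebpd, -0.22 for NEAT2 and 0.06 for Gadd45g, and for each of the 4 genes it was the lowest wild-type array. That array was among the 13 over which likeness was taken, so a shared low value there was favoured by the choice.

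**Figure D5:**
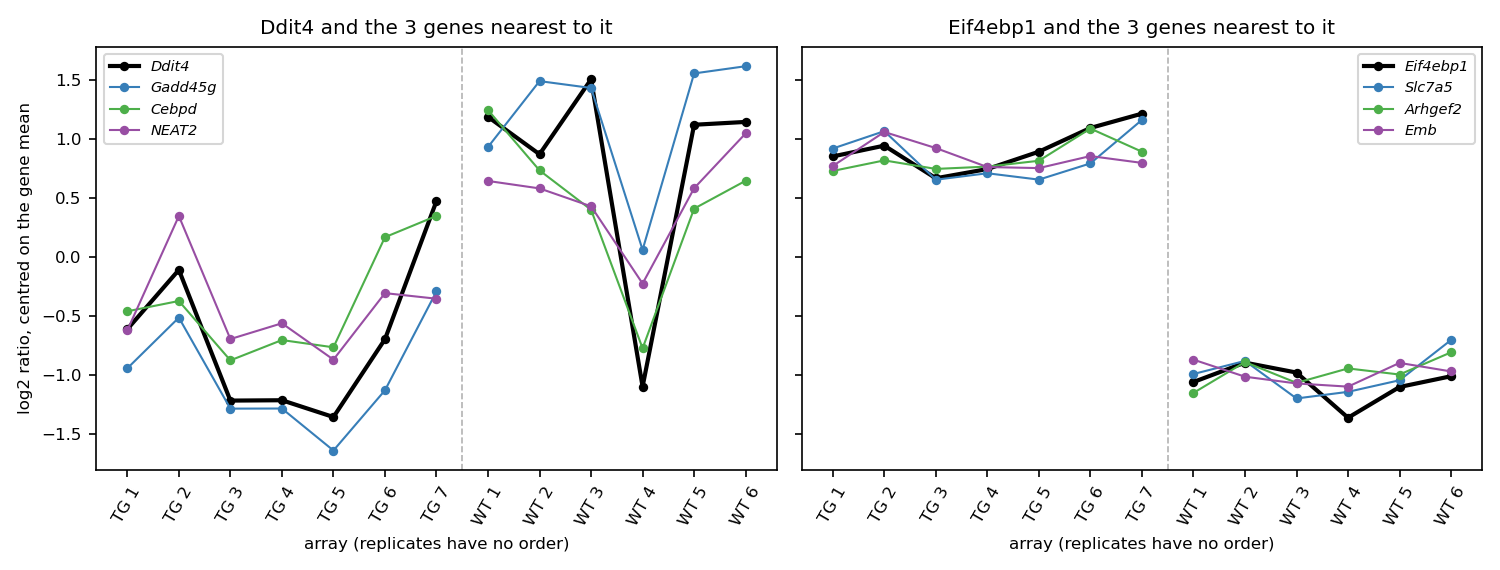
Log2 ratios centred on the gene mean for Ddit4 and Eif4ebp1 (black) and the 3 genes nearest to each, over the 7 UCP1 transgenic arrays left of the dashed line and the 6 wild-type arrays right of it. Eif4ebp1 and its neighbours step down together between the groups, whereas Ddit4 and its neighbours drop on the array labelled wild type 4. The neighbours were chosen for likeness over these same arrays, which favours both patterns.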

How the data were processed

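RNA of gastrocnemius muscle of 13 mice was hybridised to 2-colour Agilent 8x60K arrays, from 200 ng of RNA per mouse per the labels' protocols, without a dye swap. The deposited scanner files hold spot and background intensity on a linear scale, flags with other values, and a log10 ratio of Cy5 over Cy3, from Agilent Feature Extraction 10.5.1.1 per the file headers and the submitters' processing notes. The authors' deposited value table was taken as log2 signals. Its column medians of 7.52 to 7.54 show a common centre, its background correction is not given in the sources used here, and it served as an alternative.

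From the intensities, normexp with an offset of 50 and loess within each array gave log2 ratios of Cy5 over Cy3 (limma 3.58.1, R 4.3.3). Control spots (3671 per array) and outlier spots among the others (278 to 377 per array) had no weight. Probes whose Cy5 signal was well above background on 6 or more of the 13 arrays were kept (22716 probes), and the brightest kept probe stood for a gene. Groups were compared with lmFit and eBayes, two-sided, without covariates. Errors of differences are standard errors and errors of means are standard deviations between mice; 13 arrays limit the precision. Probe coordinates are in mm9 per the file headers.

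Of the genes tested, RefSeq names on GRCm38.p6 were found through the accession for 11861, through the symbol for 744 and through a former symbol for 119, and 4533 kept the files' name. The members and lists were chosen with earlier results of these data known. Beside the 10 members, the text names up to 4 genes in each direction with the largest differences per list, any with a difference of at least 1, and the 3 genes most like a member that passed with a difference of at least 1. Rptor, Rheb, Rragc, Nr3c1, Fkbp5, Pdk4, Ckm, Des and Myh2 fall outside this rule. Their values were known when they were picked. A gene that the rule names is not reported here. The pair tests used scipy 1.17.1. The lists covered mTORC1 and mTORC2 subunits, TSC and Rheb, Rag GTPases with Ragulator and folliculin, GATOR with sensors, effectors and upstream kinases. They also covered targets of ATF4, of glucocorticoids, of hypoxia and of FoxO and p53, and markers of 9 cell types. Given only here are endothelial markers (none higher, 1 lower of 8) and smooth muscle markers (no call among 7). The same holds for fibroblast (2 higher of 8) and macrophage markers (none higher, 1 lower of 8). Alternatives covered normalization, offset, channel, filter, probe choice, slide, replicate number, an adipocyte covariate and leaving out each array.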

Additional observations from a re-analysis of the deposited data

Results flagged for a closer look

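The array labelled wild type 4 stood apart from the other wild-type arrays for 2 genes by Dixon's ratio of the gap to the range of the group. For Ddit4 it was the lowest of 6 at -1.36, with the next at 0.61 (ratio 0.756). For Ucp1 it was the highest of 6 at 0.45, with the next at -2.82 (ratio 0.699). Of the 22 groups examined, 2 gave such a value, and chance gives about 1 in 20 for a single group. Both values came from the same array, so they are not independent and the count cannot be weighed against that rate. The cause was not tested.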

How the results depend on the processing

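The count of 2907 genes higher and 2785 lower became 1041 and 265 with median centring without loess (79.7% of calls higher, against 51.1%), 1566 and 1621 with the adipocyte covariate, and 577 and 609 with that covariate on the 12 arrays without the one labelled wild type 4, an alternative chosen after seeing the data. In the same order, the pathway genes higher, 15 of 66, became 5, 7 and 0, and those lower, 16 of 66, became 0, 8 and 4. The cause of these shifts was not tested. The members higher, 2, became 1 (Eif4ebp1) with the covariate on 12 arrays, and the members lower, 3, became 1 (Rragd) with median centring. Reversed were Sesn3 (0.02) and Eif4ebp2 (0.17), both with median centring. Sesn1 minus Sesn3 passed in the authors' value table (0.34, exact permutation, adjusted p = 0.049). The 6 pairs were not run with slide as a random block or with the covariate, which the label permutation does not extend to.

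Leaving out each array in turn gave 2579 to 2930 genes higher and 2532 to 2774 lower, 2 to 3 members higher and 3 lower, and 14 to 16 pathway genes in each direction. The pairs ranged from 0.61 to 0.80 for Sesn2 minus Sesn1, 0.85 to 0.96 for Sesn2 minus Sesn3, 0.14 to 0.26 for Sesn1 minus Sesn3, -0.93 to -0.50 for Ddit4 minus Ddit4l, 2.04 to 2.15 for Eif4ebp1 minus Eif4ebp2 and -1.17 to -1.01 for Rragd minus Rraga.

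With the replicate number as a block, on 12 arrays, 2717 genes were higher and 2648 lower, and no member changed its call (Sesn2 0.91, Ddit4 -1.65, Ddit4l -0.84, Eif4ebp1 1.93, Rragd -0.89). The paired differences were 0.80, 0.94, 0.14, -0.82, 2.05 and -1.01 for the pairs in the order above. Same-numbered arrays deviated together with correlations of -0.226 to 0.229, and 1 of 6 correlated best with its own number, so the numbers were not taken as pairs. Slide as a block left every member's call as it was. Sesn3, Rragd and the second Mtor probe lay closest to background, which limits their precision.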
